A study of Rattus norvegicus with 24 samples.

Results

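The transcripts of 6 receptors that raise or restrain insulin release were followed in rat INS-1E cells: Gipr, Glp1r, Adora2b, Chrm3, Sstr2 and Adra2a. They are 6 of the 14217 genes that the arrays measured, and 9 of 31099 probe sets carry their names. The members were the genes on a list of 6 that the array annotation names, and all 6 were found. They were chosen by function and with their log2 intensities in all 8 groups of these data in view, so their levels and differences are given here as a description, without p-values. INS-1E is an insulinoma line, so every group came from a single line of tumour origin.

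Each group was profiled on 3 single-colour Affymetrix arrays, 24 arrays in 8 groups. Untreated cells received the vehicle DMSO for 6 or 12 h, and matching cells received BRD0476 at 10 uM. The same vehicle and compound arms were also run with a cytokine mixture of IL-1b at 10 ng/ml, IFN-g at 50 ng/ml and TNF-a at 25 ng/ml, again for 6 or 12 h. All cells grew in RPMI medium with serum. The labels do not say whether the 3 arrays of a group came from separate cultures, so errors measure the spread between these arrays, which may be technical.

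The 6 receptors sit on the beta-cell surface and pass signals through G proteins. Gs-coupled receptors raise cAMP and so enhance glucose-stimulated secretion, Gi-coupled receptors lower cAMP and restrain it, and Gq-coupled receptors release calcium and activate protein kinase C. Gipr and Glp1r encode the receptors for the incretin hormones GIP and GLP-1, and Adora2b encodes an adenosine receptor, all coupled to Gs. Chrm3 encodes the Gq-coupled muscarinic receptor through which acetylcholine promotes secretion. Sstr2 encodes a somatostatin receptor and Adra2a the alpha-2A adrenergic receptor, both coupled to Gi and both brakes on insulin release.

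Promoter sequence was found for 5 of the 6 genes in RefSeq tables of the rat build GRCr8, Gipr being the exception. The pair shown belongs to the 2 Gi-coupled receptors, which both read low with cytokines and for which BRD0476 made a difference under cytokines, at 6 h for Adra2a and at 12 h for Sstr2. Each line is the plus strand, 250 bases long, ends just before the annotated start of the gene, and has any match to a cAMP response element in capitals.

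Sstr2, chr10:99163103-99163352: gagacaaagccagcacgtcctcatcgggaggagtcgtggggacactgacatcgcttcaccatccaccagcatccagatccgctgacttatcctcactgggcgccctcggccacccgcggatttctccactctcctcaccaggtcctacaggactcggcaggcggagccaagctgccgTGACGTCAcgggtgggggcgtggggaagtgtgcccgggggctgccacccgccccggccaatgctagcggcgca
Adra2a, chr1:263066530-263066779: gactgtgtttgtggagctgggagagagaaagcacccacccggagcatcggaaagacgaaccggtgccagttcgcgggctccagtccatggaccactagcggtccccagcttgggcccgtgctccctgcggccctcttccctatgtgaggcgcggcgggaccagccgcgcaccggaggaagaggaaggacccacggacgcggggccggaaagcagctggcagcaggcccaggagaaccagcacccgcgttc

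Both strands of these windows were searched for 4 motifs. They were the cAMP response element TGACGTCA, the STAT site TTCNNNGAA, the NF-κB site (GGGA, any base, TTTCC) and the interferon response element (GAAA, any 2 bases, GAAA). The Sstr2 window held 1 cAMP response element, which began 73 bases before the start, and none of the other motifs. The windows of Adra2a, Adora2b, Glp1r and Chrm3 held 0 matches to any of the 4. Over 33469 promoters of the same length, 1.59% held the cAMP response element, 7.67% the STAT site, 0.314% the NF-κB site and 3.41% the interferon element. The STAT site and the cAMP response element read the same on both strands, and the motifs can overlap other sites.

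Values are log2 of the intensity that the authors made with RMA, a method that corrects background, normalizes across arrays and condenses the probes of a probe set. A difference of 1 is a doubling of intensity. Array medians lay between 5.49 and 5.57 and the lower quartile of all values was 3.84, with no detection calls. Differences are group means ± the standard error from limma, a linear model fitted to all 24 arrays, with n = 3 arrays per group. Outside the 6, the threshold for calling a gene was an adjusted p of 0.05. The smallest two-sided p that an exact test of 3 arrays against 3 allows is 0.1. In bulk RNA, fewer cells with a transcript and less of it per cell cannot be told apart.

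The cells carried a beta-cell profile. Of 14 beta-cell markers, 10 had a probe set, all above the dim limit of 4.84. The insulin genes Ins1 and Ins2 had group means of 14.48 to 14.59 and 14.18 to 14.42. Of the islet hormones of other cells, Gcg, which encodes the precursor of GLP-1, had group means from 9.33 to 10.54, whereas Sst (3.68 to 3.88) and Ppy (4.08 to 4.29) lay near the lower quartile. A marker each of leukocytes (Ptprc, up to 3.85), fibroblasts (Col1a1, up to 4.48), endothelium (Pecam1, up to 3.55) and acinar cells (Cpa1, up to 3.83) was also near it. Other markers on these lists read higher, as given below.

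Summed marker levels moved with the groups to some extent. The 10 beta-cell markers summed to between 16.32 and 16.59, lowest with 6 h of cytokines in DMSO. That sum is carried by the hormone genes, and beta-cell transcription factor genes moved beside the receptors. With cytokines in DMSO the difference in Nkx6-1 was −1.52 ± 0.11 at 6 h and −1.76 ± 0.11 at 12 h, and BRD0476 under cytokines at 12 h made a difference of 1.81 ± 0.11 (limma adjusted p = 1.03e-10). Pdx1 differed by −0.56 ± 0.08 with cytokines in DMSO at 6 h and 0.07 ± 0.08 at 12 h, and group means of Mafa ran from 11.24 to 12.30. The sums ranged from 9.55 to 10.65 for 7 other islet markers, 7.06 to 7.20 for 8 leukocyte markers, 8.88 to 9.60 for 8 fibroblast markers, 6.16 to 7.12 for 5 endothelial markers and 10.83 to 11.86 for 8 exocrine and ductal markers. In the same order 2, 1, 3, 2 and 3 of them read above the dim limit. Among them were the fibroblast markers Thy1 (8.26 to 9.25) and Pdgfra (4.96 to 6.58). The endothelial marker Kdr (4.08 to 6.46) and the ductal marker Muc1 (3.98 to 6.63) were others. At 6 h in DMSO, Pdgfra read 6.58 without and 4.96 with cytokines, and Muc1 read 4.08 without and 6.17 with them. The exocrine and ductal sum was highest with 6 h of cytokines in DMSO, and most of it came from Krt7, with group means of 10.73 to 11.80. The part of these markers in the receptor differences was not tested.

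**Figure D1:**
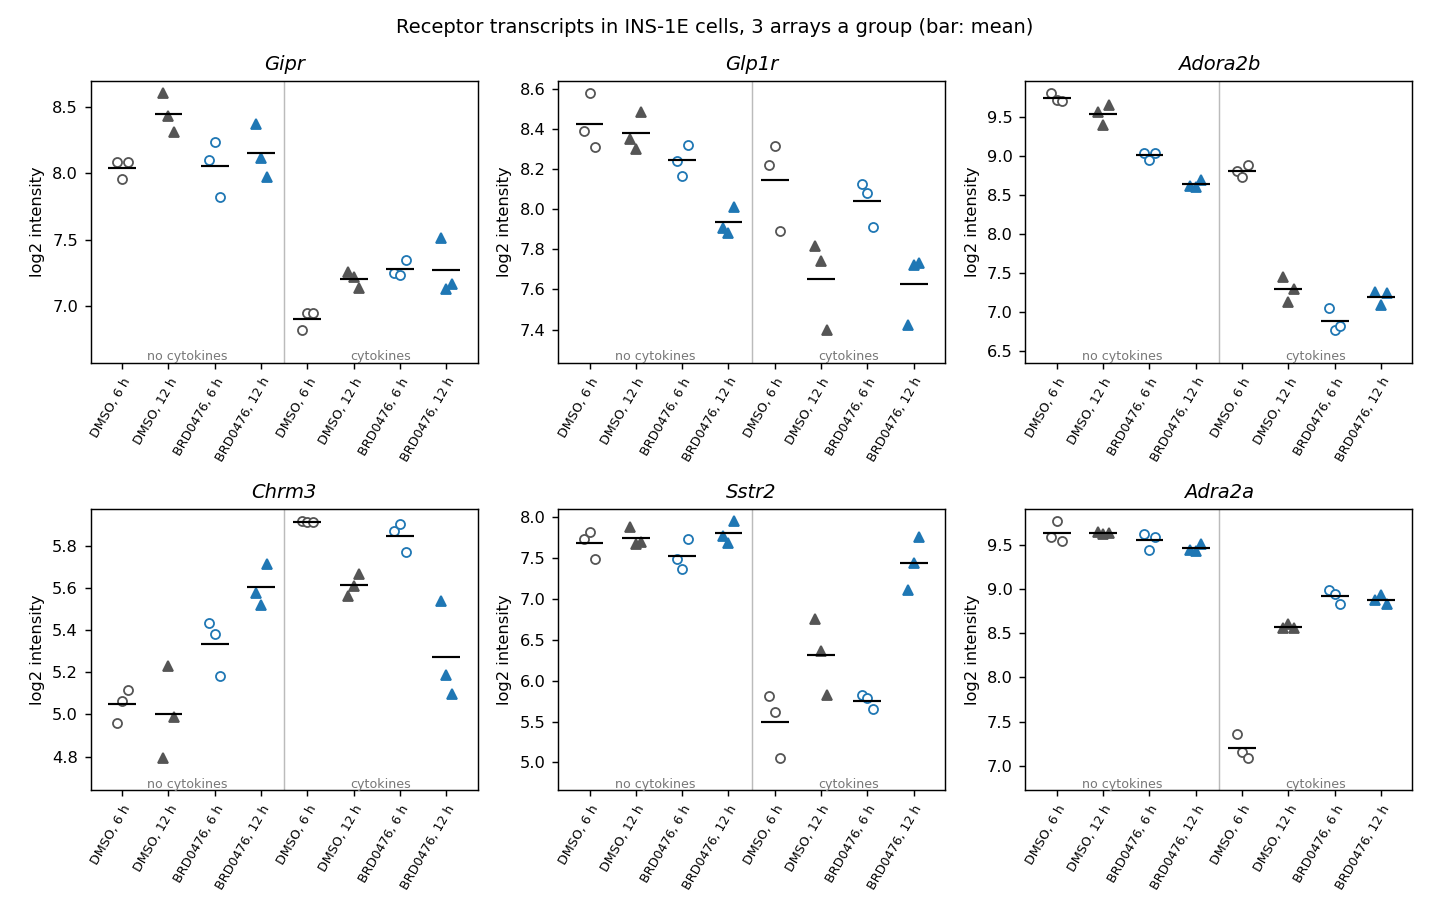
Log2 intensity (y axis) of the 6 receptor genes on each of 24 arrays, by group (x axis), with cytokine groups to the right of the vertical line. Open circles are 6 h, filled triangles 12 h, grey DMSO and blue BRD0476, and bars are means of 3 arrays. Gipr, Adora2b, Sstr2 and Adra2a sit lower with cytokines in DMSO at both times, and Chrm3 sits higher. The y axes differ between panels and do not start at 0.

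Cytokines in DMSO went with lower transcripts of both brakes and of all 3 Gs-coupled receptors, and with more Chrm3. At 6 h the differences were −2.42 ± 0.07 for Adra2a, −2.18 ± 0.20 for Sstr2, −1.13 ± 0.11 for Gipr, −0.93 ± 0.09 for Adora2b, −0.28 ± 0.12 for Glp1r and 0.87 ± 0.11 for Chrm3. All 3 cytokine arrays lay below all 3 untreated arrays for 4 genes and above them for 1, and overlapped for Glp1r. At 12 h 5 genes lay wholly below and 1 wholly above. Over all genes, groups without overlap made up 53.3% at 6 h and 53.1% at 12 h, so nothing is read from those counts. The median difference of the 6 was −1.03 at 6 h and −1.15 at 12 h, where the median over all genes was 0.00 and −0.04. Because the 6 were chosen with these levels in view, nothing is read from that gap either.

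Adra2a, the noradrenaline receptor, showed the widest 6 h difference. In untreated cells at 6 h its arrays read 9.58, 9.77 and 9.54, and with cytokines 7.37, 7.16 and 7.09. This is a 5.36-fold lower intensity, with more than 2 log2 units between the nearest arrays. At 12 h the untreated arrays read 9.64, 9.62 and 9.63 and the cytokine arrays 8.55, 8.61 and 8.56. The 12 h difference of −1.05 ± 0.07 was smaller than the 6 h one by 1.37 ± 0.10, and the untreated level was the same at both times to within 0.01.

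With BRD0476 the cytokine difference in Adra2a was −0.63 ± 0.07 at 6 h and −0.58 ± 0.07 at 12 h. At 6 h, cytokine arrays with BRD0476 read 8.99, 8.94 and 8.83, all above the cytokine arrays with DMSO, by 1.71 ± 0.07. At 12 h they read 8.87, 8.93 and 8.83, above DMSO by 0.30 ± 0.07. The compound alone left Adra2a at 9.62, 9.44 and 9.58 at 6 h, overlapping DMSO, and at 9.44, 9.43 and 9.50 at 12 h, wholly below it by 0.17 ± 0.07. Ordered by level, the 4 groups without cytokines came first, then cytokines with BRD0476 at 6 and 12 h, whose arrays overlapped, then cytokines in DMSO at 12 h and last at 6 h.

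The Adra2a values come from the probe set 1393048_at, designed on an expressed sequence tag. A second probe set, 1387708_at, averaged 4.78, against 8.98 for the first, and followed it only in part (r = 0.54 over 24 arrays, which share treatment and processing). On it the cytokine difference in DMSO was −0.38 ± 0.19 at 6 h and 0.02 ± 0.19 at 12 h, and the BRD0476 difference with cytokines was 0.33 ± 0.19 at 6 h. Without cytokines the BRD0476 difference on it was 0.29 ± 0.19 at 6 h. The cytokine difference in BRD0476 minus that in DMSO was thus 0.04 ± 0.27 at 6 h, against 1.80 ± 0.10 on the first. The size of the Adra2a differences, and how the compound difference varied with cytokines, therefore rest on a single probe set.

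Sstr2, whose product binds the somatostatin made by delta cells, was also low with cytokines. Untreated arrays at 6 h read 7.73, 7.81 and 7.49, and cytokine arrays 5.81, 5.62 and 5.06. These groups lay far apart, though the cytokine arrays of Sstr2 spread more than those of any other member (SD 0.39 at 6 h and 0.47 at 12 h). At 12 h the untreated arrays read 7.88, 7.66 and 7.70 and the cytokine arrays 6.76, 6.36 and 5.82, a difference of −1.43 ± 0.20.

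BRD0476 made a larger difference to Sstr2 under cytokines at 12 h than at 6 h. At 6 h, cytokine arrays with BRD0476 read 5.82, 5.79 and 5.65, overlapping those with DMSO (0.26 ± 0.20). At 12 h they read 7.11, 7.44 and 7.75, wholly above DMSO by 1.12 ± 0.20, and overlapped the range of cells given BRD0476 without cytokines (7.76, 7.68 and 7.95). That leaves a cytokine difference of −0.37 ± 0.20 with BRD0476 at 12 h, against −1.77 ± 0.20 at 6 h. Without cytokines BRD0476 arrays read 7.49, 7.36 and 7.72 at 6 h. The compound made a difference there of −0.15 ± 0.20 at 6 h and 0.05 ± 0.20 at 12 h, with overlapping arrays both times.

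In order of level, the 4 cytokine-free groups of Sstr2 and cytokines with BRD0476 at 12 h formed a chain of overlapping neighbours. Cytokines in DMSO at 12 h came next, clear of that chain, and both 6 h cytokine groups were lowest and overlapped each other. The second Sstr2 probe set, 1371174_s_at, which may read other transcripts too as its suffix marks, averaged 5.51 and followed the first with r = 0.83 over 24 arrays. It gave smaller cytokine differences in DMSO, −0.43 ± 0.12 at 6 h and −0.22 ± 0.12 at 12 h. The BRD0476 differences with cytokines were −0.24 ± 0.12 at 6 h, the other sign from the first probe set, and 0.45 ± 0.12 at 12 h. In BRD0476 at 12 h its cytokine difference was 0.17 ± 0.12, also of the other sign.

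Adora2b, the low-affinity adenosine receptor, had the largest difference between BRD0476 and DMSO without cytokines. Untreated arrays read 9.80, 9.71 and 9.70 at 6 h and 9.56, 9.39 and 9.65 at 12 h. BRD0476 without cytokines gave 9.04, 8.94 and 9.04 at 6 h and 8.62, 8.60 and 8.69 at 12 h, wholly below DMSO by 0.74 ± 0.09 and 0.90 ± 0.09. Adora2b (lower) and Chrm3 (higher) were the members whose arrays were separate at both times.

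The cytokine difference in Adora2b varied with time and compound. In DMSO, cytokine arrays read 8.81, 8.73 and 8.88 at 6 h and 7.44, 7.13 and 7.29 at 12 h, so the difference from untreated cells went from −0.93 ± 0.09 to −2.25 ± 0.09. With BRD0476 the low level was already there at 6 h, with arrays at 7.05, 6.77 and 6.81, and 12 h arrays read 7.25, 7.08 and 7.23. BRD0476 was therefore lower than DMSO under cytokines by 1.93 ± 0.09 at 6 h and by 0.10 ± 0.09 at 12 h, where the arrays overlapped. Unlike Adra2a, Adora2b with cytokines at 6 h lay further from its untreated level with the compound than with DMSO.

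The order of the 8 groups was sharper for Adora2b than for the other members. Every pair of neighbours in the order was separated without overlap except cytokines at 12 h in DMSO and in BRD0476. The lowest group was cytokines with BRD0476 at 6 h (mean 6.88) and the highest was untreated DMSO at 6 h (mean 9.74). A single probe set, 1387395_at, reads this gene.

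Gipr, the GIP receptor, was low in every cytokine group. Its arrays read 8.08, 7.96 and 8.08 without and 6.82, 6.95 and 6.95 with cytokines at 6 h in DMSO. At 12 h they read 8.60, 8.43 and 8.31 without and 7.26, 7.22 and 7.13 with cytokines, and the change in the difference between times was −0.11 ± 0.16. No array of the 12 with cytokines reached any of the 12 without, since the highest read 7.52 and the lowest 7.82.

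With BRD0476 and cytokines Gipr read 7.25, 7.23 and 7.35 at 6 h, wholly above DMSO by 0.37 ± 0.11, and 7.52, 7.13 and 7.17 at 12 h, overlapping DMSO (0.07 ± 0.11). BRD0476 alone gave 8.10, 8.24 and 7.82 at 6 h and 8.37, 8.11 and 7.97 at 12 h, overlapping DMSO at both times. The cytokine differences in BRD0476 were −0.77 ± 0.11 at 6 h and −0.88 ± 0.11 at 12 h. Among the groups without cytokines all neighbours overlapped, and untreated DMSO cells read higher at 12 h than at 6 h by 0.41 ± 0.11 without overlap. A single probe set, 1368481_at, reads Gipr.

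Glp1r, the receptor for GLP-1 and for the drugs built on it, had the smallest 6 h cytokine difference. Untreated arrays read 8.39, 8.58 and 8.31 at 6 h and cytokine arrays 8.22, 8.32 and 7.89, so that the groups overlapped. At 12 h untreated arrays read 8.35, 8.30 and 8.49 and cytokine arrays 7.82, 7.74 and 7.40, wholly lower by 0.73 ± 0.12. The difference at 6 h was about the size of the spread within the cytokine group (SD 0.22), while that at 12 h was larger.

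BRD0476 with cytokines left Glp1r at 8.13, 8.08 and 7.91 at 6 h and at 7.42, 7.72 and 7.73 at 12 h, overlapping DMSO both times (−0.10 ± 0.12 and −0.03 ± 0.12). BRD0476 alone gave 8.24, 8.17 and 8.32 at 6 h and 7.91, 7.88 and 8.01 at 12 h, and the 12 h arrays lay wholly below DMSO by 0.44 ± 0.12. The cytokine difference at 12 h was −0.31 ± 0.12 in BRD0476 against −0.73 ± 0.12 in DMSO, and these differed by 0.42 ± 0.17. In order of level, all neighbours overlapped except BRD0476 alone at 12 h and cytokines in DMSO at 12 h. Glp1r has 1 probe set, 1369699_at.

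Chrm3, the muscarinic receptor, ran against the other 5. Its arrays read 4.96, 5.07 and 5.12 without and 5.92, 5.91 and 5.91 with cytokines at 6 h in DMSO, and 4.79, 5.23 and 4.99 without and 5.56, 5.61 and 5.67 with cytokines at 12 h (0.61 ± 0.11). The cytokine groups lay wholly above the untreated ones at both times. On 23 of 24 arrays Chrm3 read above the dim limit of 4.84, a limit set 1 above the lower quartile.

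On the first Chrm3 probe set the compound alone also gave higher values. Without cytokines BRD0476 gave 5.43, 5.38 and 5.18 at 6 h and 5.58, 5.52 and 5.71 at 12 h, wholly above DMSO by 0.28 ± 0.11 and 0.60 ± 0.11. With cytokines it gave 5.87, 5.90 and 5.77 at 6 h and 5.54, 5.19 and 5.09 at 12 h, wholly below DMSO by 0.07 ± 0.11 and 0.34 ± 0.11. At 12 h the cytokine difference in BRD0476 was thus −0.33 ± 0.11, with overlapping arrays, against 0.61 ± 0.11 in DMSO. The second probe set, 1369112_at, averaged 3.29, below the lower quartile, and did not follow the first (r = −0.01 over 24 arrays). On it the cytokine difference was −0.10 ± 0.10 at 6 h and 0.18 ± 0.10 at 12 h in DMSO, and 0.11 ± 0.10 at 12 h in BRD0476. There BRD0476 without cytokines made a difference of −0.21 ± 0.10 at 6 h, the other sign, and 0.05 ± 0.10 at 12 h.

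**Figure D2:**
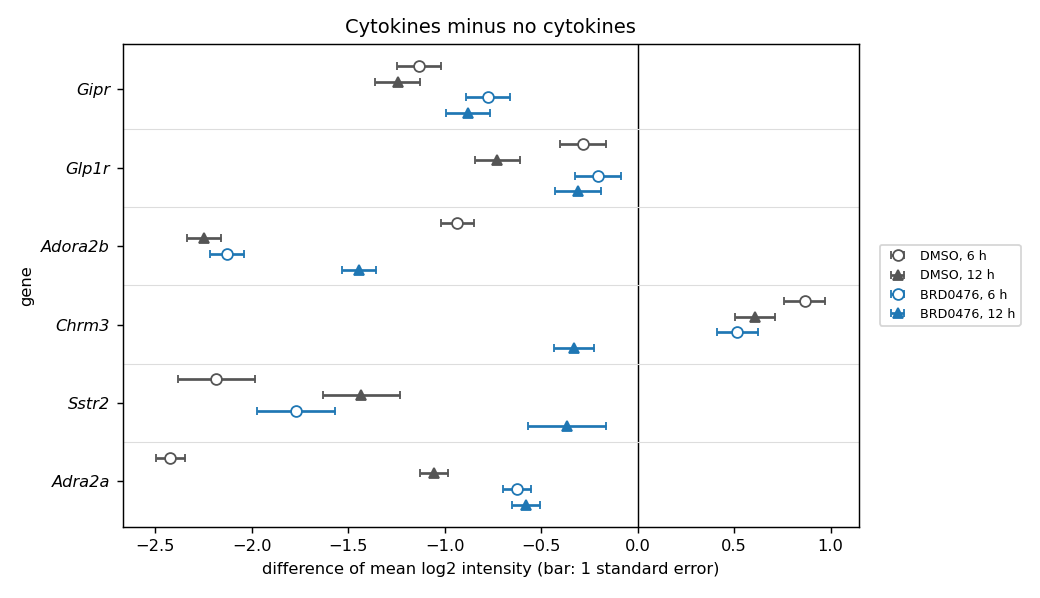
Difference of mean log2 intensity, cytokines minus no cytokines (x axis), for each receptor gene (y axis), with bars of 1 standard error and n = 3 arrays per group. Grey is DMSO, blue BRD0476, open circles 6 h and filled triangles 12 h. Adra2a lies at −2.42 in DMSO at 6 h and near −0.6 in BRD0476 at both times, and Chrm3 is the only gene with points above 0.

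Set side by side on the probe sets used, the members differed in how BRD0476 altered the cytokine difference. The interaction, that is, the cytokine difference in BRD0476 minus that in DMSO, was 1.80 ± 0.10 for Adra2a, 0.41 ± 0.28 for Sstr2, 0.36 ± 0.16 for Gipr, 0.08 ± 0.17 for Glp1r, −0.35 ± 0.15 for Chrm3 and −1.19 ± 0.12 for Adora2b at 6 h. At 12 h it was 0.48 ± 0.10, 1.07 ± 0.28, 0.37 ± 0.16, 0.42 ± 0.17, −0.94 ± 0.15 and 0.80 ± 0.12 in the same order. On its second probe set Adra2a gave 0.04 ± 0.27 at 6 h and −0.06 ± 0.27 at 12 h. The second probe sets of Sstr2 and Chrm3 gave −0.13 ± 0.17 and 0.20 ± 0.14 at 6 h, and 0.40 ± 0.17 and −0.07 ± 0.14 at 12 h. On the first probe sets the larger value of the 2 Gi-coupled brakes came at different times, 6 h for Adra2a and 12 h for Sstr2. For Adora2b the sign turned between times.

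BRD0476 with cytokines gave arrays wholly above DMSO for 2 members and wholly below for 2 at 6 h, and for 2 and 1 at 12 h, where 50.2% and 35.3% of all genes had groups without overlap. Without cytokines the counts were 1 above and 1 below at 6 h and 1 and 3 at 12 h, beside 20.5% and 30.1% of all genes. With cytokines in BRD0476 compared with BRD0476 alone, 1 lay above and 5 below at 6 h and 0 and 4 at 12 h, beside 38.4% and 41.1%. Between untreated DMSO cells at 12 and 6 h, Gipr lay wholly higher and Adora2b wholly lower, beside 19.3% of all genes. These comparisons share control arrays, and nothing is read from the counts.

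**Figure D3:**
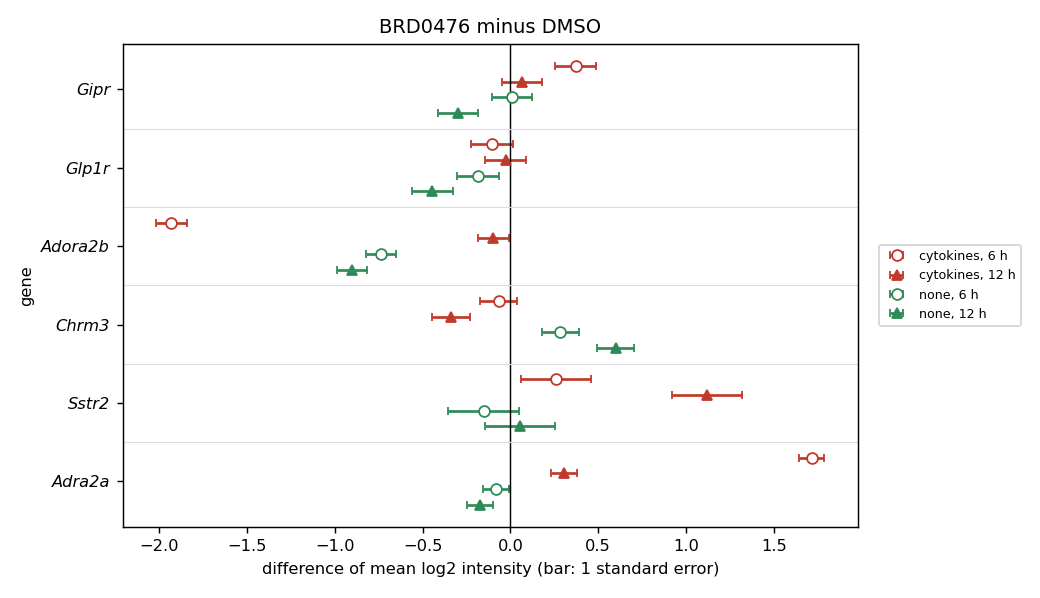
Difference of mean log2 intensity, BRD0476 minus DMSO (x axis), for each receptor gene (y axis), with bars of 1 standard error and n = 3 arrays per group. Red is with cytokines, green without, open circles 6 h and filled triangles 12 h. Under cytokines at 6 h Adra2a lies at 1.71 and Adora2b at −1.93, and without cytokines Adora2b lies below 0 at both times.

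The genes around the receptors were described from 7 lists drawn up by function. Of 193 listed symbols, 169 had a probe set. With 6 h of cytokines in DMSO, 38 rose and 36 fell, or 43.8%, where 51.7% of all genes were called, and the median change was 0.02 against 0.00 for all genes. At 12 h 28 rose and 40 fell (40.2%), where 2271 of all genes rose and 4257 fell (45.9%). In BRD0476, cytokines raised 25 and lowered 19 at 6 h (26.0%), where 1458 of all genes rose and 1515 fell (20.9%). At 12 h in BRD0476 24 rose and 22 fell (27.2%), where 1307 of all genes rose and 2631 fell (27.7%). Between untreated cells at 12 and 6 h, 4 rose and 4 fell (4.73%), where 66 of all genes rose and 172 fell (1.67%).

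Other receptors both rose and fell with 6 h of cytokines in DMSO. The share called was 33.3% for Gs-coupled, 39.1% for Gi-coupled and 15.8% for Gq-coupled receptors, beside 51.7% of all genes. Of 12 measured Gs-coupled receptors, 3 rose and 1 fell at 6 h, with Adcyap1r1, the PACAP receptor, up by 1.03 ± 0.10 (limma adjusted p = 9.15e-09) and Vipr1, a VIP receptor, down (−0.34 ± 0.13, limma adjusted p = 0.0304). The other probe set of Vipr1, which averaged 4.26, gave −0.06. Of 23 Gi-coupled receptors, 3 rose and 6 fell. Sstr1 fell by 2.36 ± 0.11 (4.61 against 6.97, limma adjusted p = 2.63e-13), although its other 2 probe sets, which averaged 4.35 and 3.92, gave 0.09 and 0.08. Sstr3 rose by 1.19 ± 0.09 (limma adjusted p = 2.32e-10), so the somatostatin receptor genes Sstr2 and Sstr3 lay on opposite sides of 0. Of 19 Gq-coupled receptors, 1 rose and 2 fell. The purinergic receptor gene P2ry1 fell by 2.01 ± 0.15 (limma adjusted p = 1.82e-10), and the adrenergic receptor gene Adra1b rose by 0.38 ± 0.13 (limma adjusted p = 0.0141), although it averaged 4.58, below the dim limit of 4.84.

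Downstream, of 36 cAMP effectors and phosphodiesterases 11 rose and 14 fell with 6 h of cytokines in DMSO (69.4%, beside 51.7% of all genes, median 0.01). In BRD0476 the share was 33.3% at both times, beside 20.9% of all genes at 6 h and 27.7% at 12 h. Akap12, a scaffold for protein kinase A, rose by 2.90 ± 0.07 (limma adjusted p = 7.35e-18). Crem, a cAMP-responsive transcription factor that can act as a repressor, fell by 1.91 ± 0.08 (8.30 against 10.22, limma adjusted p = 2.30e-14), and its other 5 probe sets lay between −1.70 and −2.59. Of 26 G protein subunits and adenylyl cyclases, 5 rose and 5 fell (38.5%, beside 51.7% of all genes). Adcy8, a calcium-activated cyclase, was up by 0.76 ± 0.15 (limma adjusted p = 0.000176) and the G protein gene Gna12 down (−0.87 ± 0.07, limma adjusted p = 3.69e-10). The other probe set of Gna12, which averaged 4.64, gave −0.09.

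Among 23 genes that switch receptors off, 7 rose and 4 fell (47.8%, beside 51.7% of all genes). Rgs2, which limits Gq signalling, rose by 1.56 ± 0.07 (limma adjusted p = 1.37e-13), while Rgs16, another regulator of G protein signalling, fell by 1.65 ± 0.08 (limma adjusted p = 1.09e-13). Of 30 Gq effectors, 8 rose and 4 fell (40%, beside the same 51.7%). The protein kinase C gene Prkca was at 1.78 ± 0.13 (limma adjusted p = 3.19e-10) and the phospholipase gene Plcb1 at −0.74 ± 0.10 (limma adjusted p = 1.33e-06). For each list the gene with the largest rise and that with the largest fall at 6 h are named.

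BRD0476 added to cytokines for 6 h raised 31 and lowered 28 of the 169 genes (34.9%, beside 44% of all genes), and 25 and 16 at 12 h (24.3%, beside 26.9%). The 14 genes named above were picked for their cytokine difference in DMSO at 6 h. The compound comparison subtracts the same cytokine arrays, which favours an opposite sign, so their values are given without p-values and nothing is read from their direction. With BRD0476 the difference was −2.27 ± 0.07 for Akap12, 1.61 ± 0.08 for Crem, 1.26 ± 0.15 for P2ry1 and −0.84 ± 0.09 for Sstr3. It was 1.01 ± 0.11 for Sstr1, with −0.27 and −0.13 on its other 2 probe sets, and 0.79 ± 0.13 for Vipr1, with 0.12 on its other one. For Adcyap1r1 it was 0.50 ± 0.10, with −0.53, −0.53 and −0.41 on its other 3 probe sets. The remaining named genes read −1.36 for Prkca, −0.67 for Rgs2, 0.46 for Rgs16, 0.43 for Plcb1, 0.14 for Adcy8 and 0.09 for Adra1b. Gna12 was at 0.35, with −0.14 on its other probe set. The interaction was called for 28 signalling genes in the positive and 21 in the negative direction at 6 h (29.0%). Over all genes 2666 were positive and 2051 negative (33.2%). At 12 h it was called for 21 and 11 (18.9%), beside 1191 and 979 over all genes (15.3%).

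**Figure D4:**
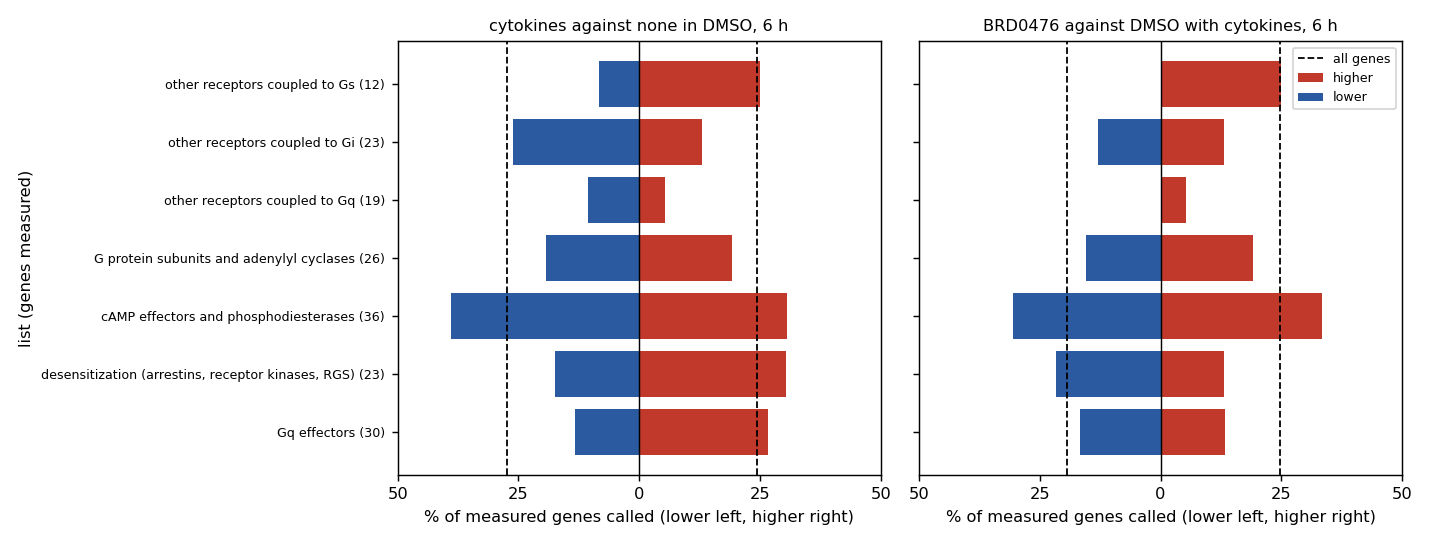
Share of measured genes called higher (red, to the right) or lower (blue, to the left) in each of 7 signalling lists (y axis, with the number measured), in percent (x axis), for 6 h of cytokines in DMSO and for BRD0476 added to cytokines for 6 h. Dashed lines mark the share over all genes, 24.3% higher and 27.4% lower in the first panel and 24.7% and 19.4% in the second. The list of cAMP effectors and phosphodiesterases is past the dashed lines on both sides in both panels.

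Without cytokines BRD0476 raised 0 and lowered 11 of the 169 at 6 h (6.51%, beside 3.53% of all genes), and raised 2 and lowered 12 at 12 h (8.28%, beside 4.66%). These counts depended on the model. With only the groups compared 0 rose and 1 fell at 6 h. With array weights the split changed too, with 6 up and 13 down at 6 h and 12 and 23 at 12 h. The replicate block gave 0 up and 12 down at 6 h and 1 and 12 at 12 h. The intensity trend gave 0 and 11 at 6 h and 2 and 13 at 12 h. Over all genes 502 of 14217 were called at 6 h, 239 higher and 263 lower, and 663 at 12 h, 287 higher and 376 lower.

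For each member the 3 genes with the most similar profile were sought among 2769 genes whose group means spanned at least 1, by Pearson r over the 24 arrays. These r values share the split into cytokine-treated and untreated arrays and are descriptions. Adra2a was followed most closely, by Kiaa0930 (r = 0.99), Trip13 (0.98) and Maob (0.98), and Gipr by Smim5 (0.96), Slc25a36 (0.95) and Lats2 (0.95). Adora2b was closest to Ccng2 (0.95), Errfi1 (0.94) and Htr5b (0.93), and Sstr2 to Gast (0.93), Txnip (0.93) and Nalf2 (0.93). Glp1r was closest to Abca1 (0.89), Nherf1 (0.88) and Rasgef1c (0.88), and Chrm3 to Hmox1 (0.86), Slc44a4 (0.84) and Cd83 (0.83). No gene appeared for more than 1 member.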

How the data were processed

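The deposited table holds, per the submitters' processing notes, intensity values made with RMA by the authors. Not given in the sources used here are the version of RMA, the chip definition and how the values returned to a linear scale. Values were taken to log2 with no further normalization. Of its 31099 probe sets, 57 are controls. Of all, 20832 have 1 gene symbol, 436 several and 9831 none in the platform annotation. For a gene with several probe sets, the one with the highest mean stood for it. A model with a mean per group and 16 residual degrees of freedom, without a replicate block, was fitted in limma (3.58.1, R 4.3.3). Adjusted p-values are Benjamini-Hochberg values over 14217 genes. The steps were tested on simulated data. The number of arrays limits the precision.

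Members, lists and alternatives were chosen with earlier results of these data known. Named were the 6 members, for each list and treatment comparison the called gene with the largest rise and fall whose arrays did not overlap (those of the 6 h cytokine comparison are given in the text), and the 3 genes most like each member. Alternatives were a replicate block, an intensity trend, only the groups compared, the mean of probe sets, array weights, quantile normalization, centred arrays, removal of 3680 dim genes and leaving out each array.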

Additional observations from a re-analysis of the deposited data

Results flagged for a closer look

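In 3 cases a receptor had every array on opposite sides in the groups with and without cytokines, and whether they differ was not tested. How many of all genes do so was not counted, so nothing is read from the number of cases. For Chrm3, BRD0476 against DMSO was −0.0665 ± 0.11 with and 0.28 ± 0.11 without cytokines at 6 h, and −0.34 ± 0.11 and 0.60 ± 0.11 at 12 h. The 6 h value with cytokines was smaller than its standard error, and the nearest arrays read 5.90 with BRD0476 and 5.91 with DMSO. For Adra2a the difference was 0.30 ± 0.07 with and −0.17 ± 0.07 without cytokines at 12 h. The second probe set of Chrm3 gave −0.01 with and −0.21 without cytokines at 6 h, and −0.02 and 0.05 at 12 h. That of Adra2a gave 0.08 with and 0.14 without cytokines at 12 h.

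For 12 signalling genes the cytokine effect at 6 h differed between BRD0476 and DMSO by limma's interaction term, which was called for 33.2% of all genes. These genes were picked for their cytokine difference in DMSO, which the term subtracts, so the values are given without p-values and their number is not read as a result. The effect in BRD0476 minus that in DMSO was 1.57 for Crem, 1.5 for Sstr1, 0.98 for Adcyap1r1, 0.92 for P2ry1, 0.69 for Rgs16, 0.61 for Vipr1, 0.48 for Gna12 and 0.46 for Plcb1. It was −2.28 for Akap12, −1.24 for Prkca, −0.93 for Sstr3 and −0.71 for Rgs2. These values come from the probe set used for each gene, and the interaction on other probe sets is not given. For BRD0476 against DMSO with cytokines at 6 h, other probe sets of Adcyap1r1, Sstr1 and Gna12 had the other sign. They gave −0.53, −0.53 and −0.41 for Adcyap1r1, −0.27 and −0.13 for Sstr1, and −0.14 for Gna12. Other probe sets of Vipr1, Crem, Akap12 and Rgs2 had the same sign as the probe set used.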

How the results depend on the processing

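Of 1158 recomputed receptor differences on the same probe set, 1157 moved by less than 1 SD of the arrays, and 36 differences of at least 0.5 stayed between 0.71 and 1.33 times their value with no change of sign. In all, 21 of the 1158 had the other sign, each for a difference under 0.5. Other probe sets of Adra2a, Chrm3 and Sstr2 gave the other sign for 14 of 39 differences, among them Adra2a with cytokines in DMSO at 12 h (0.0164) and its 12 h interaction (−0.0567), and Chrm3 with cytokines at 6 h in DMSO (−0.10) and at 12 h in BRD0476 (0.11). The cause was not tested. Of 412 counts of called genes, 380 stayed within 1.5 times. With the replicate block, 7308 genes were called with cytokines in DMSO at 6 h against 7345, and no count moved beyond 1.5 times. Same-numbered arrays deviated together with r over 0.1 in 8 of 24 pairs, so the numbers were not taken as pairs. With only the groups compared, which leaves fewer arrays, 2379 genes were called for BRD0476 with cytokines at 12 h, 108 (1 signalling gene) for BRD0476 alone at 6 h and 97 (2 signalling genes) for untreated time. With array weights the counts were 6304 for cytokines in BRD0476 at 12 h, 1123 (19 signalling) and 1929 (35 signalling) for BRD0476 alone at 6 and 12 h, and 1545 (18 signalling) for untreated time; of the signalling genes for BRD0476 alone, 6 were higher and 13 lower at 6 h and 12 and 23 at 12 h. The mean of probe sets gave 5 signalling genes for untreated time. Leaving out 1 array gave 286 to 399 and 360 to 431 genes (7 to 10 and 9 to 12 signalling) for BRD0476 alone at 6 and 12 h, and 132 to 279 (3 to 6 signalling) for untreated time, against 502, 663 and 238 (11, 14 and 8 signalling). The files carry no detection calls, and 106 of 169 signalling genes stayed when dim genes were left out.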
